A study of Mus musculus with 50 samples.

Results

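Neurons that fire switch on a set of early genes within minutes. One class of them encodes transcription factors such as Fos and Egr1, which act on other genes. The other class, effector genes, encodes proteins that act directly in the cell: phosphatases, ubiquitin ligases, scaffold proteins of the synapse and enzymes. Arc, Homer1, Gadd45b, Dusp1, Ptgs2, Btg2, Ier2 and Siah2 were taken as the effector genes, and a gene was read by every array probe set whose only gene symbol in the platform's probe-to-gene table was its own. Of the 8 genes 7 had such probe sets, and Arc was not analysed here. The 7 genes were read by 9 of the 12488 probe sets, with 2 sets each for Gadd45b and Homer1. All 9 were among the 8534 probe sets bright enough to be tested.

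The arrays measured RNA of mice with and without receptors for sphingosine 1-phosphate, a signalling lipid. According to the series' description, mice lacking S1P2 have sporadic seizures between weeks 4 and 7 of life and mice lacking S1P3 have none, so that the knockouts differ in seizure history. Neocortex and hippocampus were sampled at 8 weeks of age from wild-type mice (10 arrays per tissue, 5 male and 5 female), from mice labelled S1P2-KO (10 arrays per tissue, 5 male and 5 female) and from mice labelled S1P3-KO (5 arrays per tissue, 2 male and 3 female), which makes 50 arrays. The labels name the lost receptor and neither a strain background nor whether the loss is limited to a cell type, and every animal was taken after the age at which seizures are described.

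In background terms, synaptic input and calcium entry start early genes through kinases that act on factors already in the nucleus, among them CREB, which binds the cyclic AMP response element, and serum response factor, which binds the CArG box. The transcripts are short-lived. In cortex and hippocampus Fos, Egr1 and Arc are common markers of recent firing, and Homer1 and Ptgs2 are known to be induced by seizures and by synaptic input.

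The promoters of the effector genes were searched for such elements. RefSeq promoters of assembly GRCm38.p6, which cover 250 bases before to 50 after a start site, were matched to 5 of the 7 genes (Btg2, Dusp1, Gadd45b, Homer1 and Ptgs2). The letters searched on both strands were TGACGTCA for the full cyclic AMP response element, TGACG for its core (which overlaps the full element), TGANTCA for the AP-1 site that Fos and Jun proteins bind, TATAAA for the TATA box, and the CArG box by its name. The upstream bases of 4 genes are shown 5′ to 3′. They set genes that followed Fos across the wild-type neocortex arrays (Dusp1, Btg2, Gadd45b) beside Homer1, which did not. Not all of these relations held in the other groups, as given below. Capitals mark the matches.
Dusp1 (chr17:26508473-26508722, minus strand): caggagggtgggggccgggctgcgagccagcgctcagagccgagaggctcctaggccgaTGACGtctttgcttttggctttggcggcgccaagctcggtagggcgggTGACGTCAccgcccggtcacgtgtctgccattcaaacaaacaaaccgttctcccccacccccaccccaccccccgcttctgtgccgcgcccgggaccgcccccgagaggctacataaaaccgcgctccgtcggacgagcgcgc
Btg2 (chr1:134079156-134079405, minus strand): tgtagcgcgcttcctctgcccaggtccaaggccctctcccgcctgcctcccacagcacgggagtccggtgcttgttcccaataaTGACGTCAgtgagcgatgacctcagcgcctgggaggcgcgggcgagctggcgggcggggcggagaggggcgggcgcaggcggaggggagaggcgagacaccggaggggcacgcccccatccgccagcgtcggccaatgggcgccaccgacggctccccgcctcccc
Gadd45b (chr10:80929841-80930090, plus strand): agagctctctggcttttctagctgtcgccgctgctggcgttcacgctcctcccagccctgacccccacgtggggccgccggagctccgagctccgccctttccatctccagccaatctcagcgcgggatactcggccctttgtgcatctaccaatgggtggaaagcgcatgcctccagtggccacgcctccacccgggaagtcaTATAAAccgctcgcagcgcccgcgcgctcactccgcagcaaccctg
Homer1 (chr13:93303507-93303756, plus strand): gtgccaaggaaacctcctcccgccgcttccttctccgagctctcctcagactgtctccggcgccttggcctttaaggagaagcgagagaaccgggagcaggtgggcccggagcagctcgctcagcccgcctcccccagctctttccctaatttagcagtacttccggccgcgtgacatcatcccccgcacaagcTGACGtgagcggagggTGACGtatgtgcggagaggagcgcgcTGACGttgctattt
The full element began 143 bases before the start of Dusp1 and 166 bases before that of Btg2. It was found in 588 of 32851 RefSeq promoters of the same length (1.79%). Among 8413 promoters of genes on the array it was in 2.6%. A core lay in 4 of the 5 genes, against 20.8% of all promoters and 28.5% of those of array genes. Homer1 had 3 cores, at 56, 40 and 14 bases before the first of its 2 listed starts, and no full element. Gadd45b had a TATA box 46 bases before its start, a motif in 13.6% of all promoters. Neither the AP-1 letters (7.81% of promoters) nor the CArG box (1.63%) matched in any of the 5. Among 16 transcription-factor early genes with a promoter, 1 (Maff) held the full element, 12 held a core, 4 a TATA box, 0 the AP-1 letters and 1 (Egr2) the CArG box. A match is a run of letters and was not tested as a binding site.

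The values are array signals of the MAS5 method, already scaled by the authors so that the trimmed mean of each array is the same (1000.56 to 1000.66). Signals of 2 probe sets cannot be set against each other as amounts of RNA, so each gene is compared only with itself. Log2 differences are on the scale log2(signal + 30.7), which understates those of dim genes. They are given with the standard error (SE) from limma, and adjusted p-values follow Benjamini-Hochberg over the 8534 probe sets. The number of arrays limits the precision, and in whole tissue fewer cells of a type and less RNA per cell cannot be told apart. The labels call the replicates biological, and the p-values measure the spread between arrays.

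Some facts of the whole series touch these genes. The probe set of S1pr2, the gene of S1P2, differed by -0.10 in S1P2-KO neocortex and by -0.24 in S1P2-KO hippocampus (limma adjusted p = 0.874 and 0.925), and that of S1pr3 differed by -0.26 and -0.69 in S1P3-KO (adjusted p = 0.638 and 0.164). Whether these probe sets lie in the deleted parts is not given, so genotypes rest on the labels. Summed signals of 6 neuron markers ran from 76190 to 90580 in wild-type and from 76030 to 83280 in S1P2-KO neocortex. All 4 measured neocortex markers were called lower in wild-type hippocampus than in neocortex (median -2.18), and all 5 tested hippocampus markers were called higher (median 1.83), as the tissue labels say. The 3' to 5' ratio of the control probe sets (log2), which grows as RNA degrades, had medians of 0.378, 0.256 and 0.235 in wild-type, S1P2-KO and S1P3-KO neocortex. In hippocampus wild-type replicate 4 (1.2), S1P2-KO replicate 7 (1.37) and S1P3-KO replicate 5 (4.46) stood above a ratio of 1, so values without the last are given where it moves a result.

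**Figure D1:**
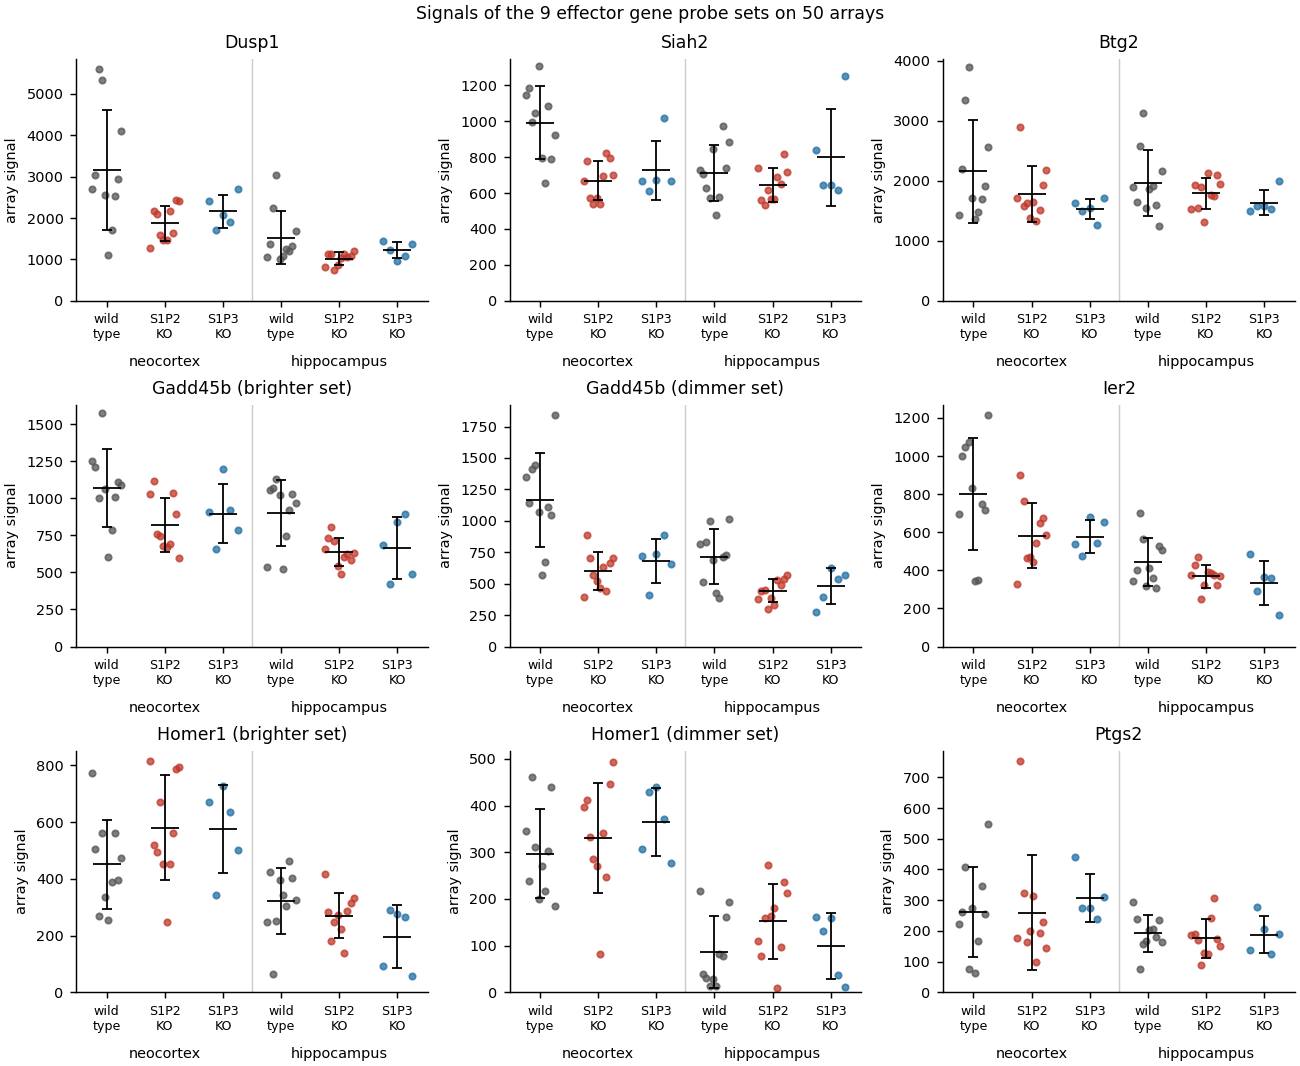
Signal of each effector gene probe set on every array, by genotype and tissue (linear axis from 0). Each point is an array, the long bar is the group mean and the whiskers are 1 SD. In neocortex the S1P2-KO arrays (red) of Dusp1, Siah2 and the dimmer Gadd45b set all lie below the wild-type medians of 2814, 1021 and 1126, and Homer1 and Ptgs2 show no such shift.

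Across genotypes the effector genes divided by gene. In neocortex labelled S1P2-KO, Dusp1, Siah2 and the dimmer of the Gadd45b probe sets had the largest differences from wild-type, all lower, while Homer1 was higher on average and Ptgs2 had nearly the same mean. The brighter Gadd45b set (-0.36) differed by less than Ier2 (-0.39). After adjustment over all probe sets 0 of 9 effector probe sets passed the limma threshold of 0.05, and 0% of all tested probe sets did. At an unadjusted p under 0.05, 4 of 9 were lower and 0 higher, against 4.25% of all tested probe sets lower at that level. In 3 of 9 each of the 10 S1P2-KO signals was under the median of wild-type, which held for 1.78% of all tested probe sets. Over the 7 genes, each by its brightest probe set, 6 were lower, with a median log2 difference of -0.36 against -0.01 over all tested probe sets.

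Dusp1 encodes a nuclear phosphatase that switches off MAP kinases. Its signal in wild-type neocortex ran from 1116 to 5596 with a median of 2814. In S1P2-KO neocortex it ran from 1274 to 2436 with a median of 1872, and on the 5 S1P3-KO arrays it was 2418, 1711, 2061, 1892 and 2712. All knockout arrays of both genotypes lay below the wild-type median, and none lay below the lowest wild-type array, so the ranges overlapped. The lowest wild-type arrays were replicates 6 and 7, at 1116 and 1700. The mean was 3162 ± 1448 (SD, n = 10) in wild-type, 1873 ± 426 (n = 10) in S1P2-KO and 2159 ± 404 (n = 5) in S1P3-KO. The log2 difference was -0.64 (SE 0.20, 95% interval -1.05 to -0.22) in S1P2-KO and -0.40 (SE 0.25, interval -0.91 to 0.10) in S1P3-KO. Neither passed the threshold (limma adjusted p = 0.298 and 0.611).

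Hippocampal Dusp1 was lower than neocortical Dusp1 in every genotype, as described with the tissues. It ran from 1019 to 3033 with a median of 1287 in wild-type and from 742 to 1192 with a median of 1075 in S1P2-KO. The 5 S1P3-KO arrays had 1445, 1219, 969, 1094 and 1363. Each S1P2-KO signal was under the median of wild-type, and the 2 arrays furthest above the rest, replicates 3 and 4 at 2246 and 3033, were wild-type. The differences were -0.50 (SE 0.16) in S1P2-KO and -0.24 (SE 0.19) in S1P3-KO (limma adjusted p = 0.809 and 0.709). Wild-type replicate 4 is also an array with a high 3' to 5' ratio.

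Siah2 encodes an E3 ubiquitin ligase that marks proteins for degradation. In neocortex its wild-type signals ran from 654 to 1305 with a median of 1021, and its S1P2-KO signals from 537 to 826 with a median of 681. On the S1P3-KO arrays it was 667, 611, 671, 1017 and 665. The 10 S1P2-KO and the 5 S1P3-KO arrays all lay below the wild-type median, S1P3-KO replicate 4 by little. The log2 difference was -0.54 (SE 0.12, interval -0.78 to -0.29) in S1P2-KO and -0.43 (SE 0.15, interval -0.73 to -0.12) in S1P3-KO. Both missed the threshold (limma adjusted p = 0.140 and 0.290), but the first passed without wild-type replicate 7 (adjusted p = 0.037).

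In hippocampus Siah2 showed little of this. Its means were 714 ± 156 in wild-type, 646 ± 93.0 in S1P2-KO and 799 ± 268 in S1P3-KO, with differences of -0.12 (SE 0.13) and 0.12 (SE 0.16). The S1P3-KO mean rested on replicate 5 at 1251. Without it the mean was 686 ± 104 (n = 4) and the difference -0.04. The difference between tissues in the S1P2-KO effect on Siah2 was 0.42 (SE 0.18, unadjusted limma p = 0.0245), and that in the S1P3-KO effect was 0.55 (SE 0.22, p = 0.0161, and 0.39 without replicate 5). Neither passed over all probe sets (adjusted p = 1.0 and 0.875), where 0% of probe sets were called in either comparison.

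Gadd45b belongs to a family of stress proteins that take part in DNA repair and in active DNA demethylation, and it is induced in hippocampal neurons by activity. Its probe sets are called brighter (102779_at) and dimmer (161666_f_at) by their mean over all arrays, although the second was the higher in wild-type neocortex. The letter f in the second name is Affymetrix's mark for sets whose probes can match several sequences of a family, so its signal may not be Gadd45b alone. On the dimmer set wild-type neocortex ran from 568 to 1844 with a median of 1126, and S1P2-KO from 393 to 889 with a median of 601. The S1P3-KO arrays had 720, 408, 735, 884 and 657. All arrays of both knockouts lay below the wild-type median, and 4 of the 10 S1P2-KO arrays lay below every wild-type array.

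The dimmer set had the smallest p of the effector genes in S1P2-KO neocortex, with a difference of -0.89 (SE 0.18, interval -1.25 to -0.53, limma adjusted p = 0.0764). It passed when wild-type replicate 6, wild-type replicate 7 or S1P2-KO replicate 2 was left out (adjusted p = 0.0143, 0.0234 and 0.0438). Over all single arrays left out of this comparison, at most 8 of all tested probe sets passed. In S1P3-KO neocortex it differed by -0.71 (SE 0.22, adjusted p = 0.219), in S1P2-KO hippocampus by -0.62 (SE 0.17, adjusted p = 0.752) and in S1P3-KO hippocampus by -0.54 (SE 0.21, adjusted p = 0.426). Of the 9 effector probe sets it was the only one with every knockout array below the wild-type median in all 4 comparisons. The 2 knockouts share the wild-type arrays of a tissue. Same-numbered wild-type arrays of the 2 tissues correlated for this set (r = 0.91), and whether they come from the same animals is not stated. The 4 comparisons are therefore not independent. The share of all probe sets with every knockout array below the wild-type median in all 4 was not counted. In single comparisons it was 1.78% and 7.18% for S1P2-KO and S1P3-KO neocortex, and 1.41% and 5.66% for hippocampus.

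The brighter Gadd45b set differed less. Its neocortical means were 1069 ± 261 in wild-type, 821 ± 183 in S1P2-KO and 895 ± 200 in S1P3-KO, with differences of -0.36 (SE 0.14) and -0.22 (SE 0.17). In hippocampus they were 899 ± 221, 638 ± 93.7 and 667 ± 209, with differences of -0.44 (SE 0.15) and -0.42 (SE 0.19). The 2 sets thus gave the same direction in all 4 comparisons and correlated over the 50 arrays with r = 0.42 after group means were removed.

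Btg2, an antiproliferative protein that helps shorten the tails of messenger RNAs, and Ier2, a small nuclear protein, were also lower on average in both knockouts and both tissues. Btg2 averaged 2158 ± 860 in wild-type neocortex, 1781 ± 465 in S1P2-KO and 1528 ± 167 in S1P3-KO, with differences of -0.22 (SE 0.16) and -0.39 (SE 0.19). Its 5 S1P3-KO arrays (1624, 1491, 1545, 1269 and 1713) all lay below the wild-type median of 1815. Ier2 averaged 803 ± 294 in wild-type, 582 ± 170 in S1P2-KO and 577 ± 87.2 in S1P3-KO neocortex, with differences of -0.39 (SE 0.19) and -0.35 (SE 0.24). Its lowest wild-type arrays were again replicates 6 and 7, at 346 and 350. In hippocampus Btg2 differed by -0.10 in S1P2-KO and -0.22 in S1P3-KO, and Ier2 by -0.22 and -0.40. Without S1P3-KO replicate 5, whose Ier2 signal of 167 was the lowest of all 50 arrays, the S1P3-KO difference of Ier2 was -0.20.

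Homer1 encodes a scaffold that links glutamate receptors at the synapse to calcium stores. Its short form is the activity-induced one and its long forms are made at rest, and the probe-to-gene table does not say which form either probe set reads. On the brighter set (104499_at) neocortical means were 451 ± 157 in wild-type, 579 ± 185 in S1P2-KO and 576 ± 154 in S1P3-KO, with differences of 0.34 (SE 0.20) and 0.36 (SE 0.24). In hippocampus the means were 322 ± 115, 270 ± 78.6 and 196 ± 111, with differences of -0.17 (SE 0.27) and -0.73 (SE 0.33). The 5 S1P3-KO hippocampus arrays had 93.3, 289, 277, 264 and 58.2, the last being replicate 5. All 5 were under 334, the median of wild-type. Without replicate 5 the difference was -0.42.

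The dimmer Homer1 set (104498_at) did not follow the brighter one in hippocampus. Its means there were 85.5 ± 76.9 in wild-type, 152 ± 79.8 in S1P2-KO and 99.7 ± 70.8 in S1P3-KO, with differences of 0.75 (SE 0.40) and 0.22 (SE 0.50). Signals as low as 9.4 were among them, where the method is noisiest. With both Homer1 sets averaged the S1P2-KO difference in hippocampus was 0.29, of the other sign than on the brighter set. None of the Homer1 differences between genotypes passed the threshold.

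Ptgs2 encodes cyclooxygenase-2, which makes prostaglandins in active neurons. Its neocortical means were 262 ± 148 in wild-type, 259 ± 187 in S1P2-KO and 308 ± 77.8 in S1P3-KO. The S1P2-KO signals ran from 98.5 to 753 with a median of 196. The highest was replicate 2, which also had the highest Fos of its group. The difference was -0.00 (SE 0.30, interval -0.61 to 0.60), and small changes of processing turned its sign. In hippocampus the differences were -0.11 (SE 0.20) in S1P2-KO and -0.03 (SE 0.25) in S1P3-KO.

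**Figure D2:**
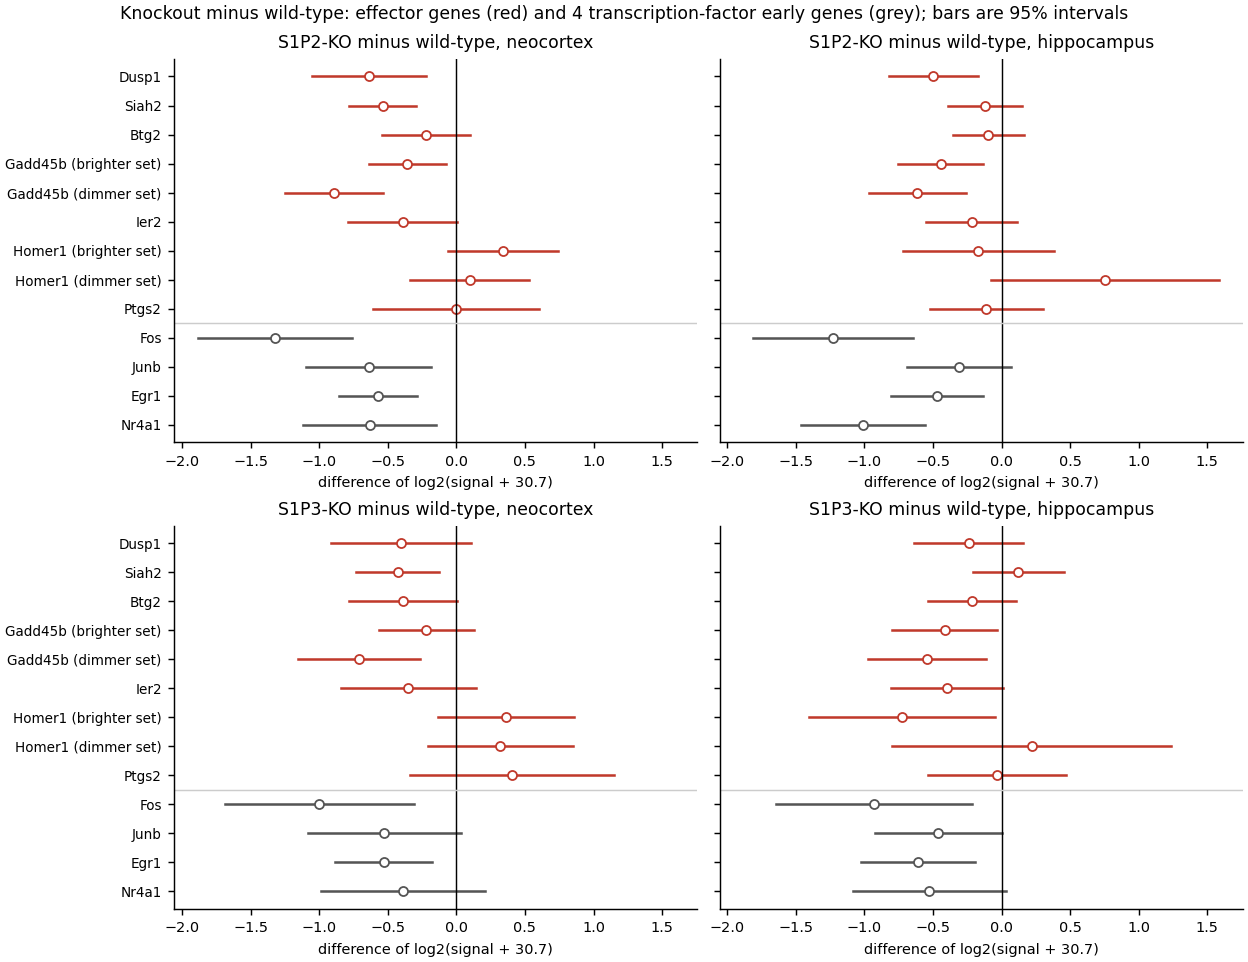
Log2 difference of each knockout from wild-type in either tissue, for the 9 effector probe sets (red) and 4 transcription-factor early genes (grey), with 95% intervals from limma. None passed the adjusted threshold. In neocortex Dusp1, Siah2 and Gadd45b lie to the left of 0 (-0.64, -0.54 and -0.89 for the dimmer set in S1P2-KO) while Homer1 lies to the right (0.34).

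Counts over the comparisons were as follows. In S1P2-KO hippocampus 0 of 9 effector probe sets passed after adjustment (0% of all probe sets), and 3 of 9 were lower at an unadjusted p under 0.05 (3.14% of all). In the same 3, Dusp1 and both Gadd45b sets, each S1P2-KO signal was under the median of wild-type (1.41% of all). In S1P3-KO neocortex 0 passed (0% of all), 2 were lower at the unadjusted level (5.16% of all), and 5 of 9 had all 5 arrays below the wild-type median (7.18% of all). In S1P3-KO hippocampus 0 of 9 passed (0.0352% of all), 3 were lower at the unadjusted level (4.96% of all), and 3 had all 5 arrays below the median (5.66% of all). Two-sided permutation tests of the log2 signals of single probe sets, exact for 5 against 10 arrays and with 100000 resamples for 10 against 10, gave an unadjusted p under 0.05 for 4, 3, 2 and 0 of 9 in the order S1P2-KO neocortex, S1P2-KO hippocampus, S1P3-KO neocortex and S1P3-KO hippocampus. All 4 comparisons with wild-type use the same 10 wild-type arrays of a tissue, so low or high wild-type arrays act on both knockouts at once.

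The knockouts were also compared with each other. Of the effector probe sets 0 of 9 differed between S1P2-KO and S1P3-KO at an unadjusted limma p under 0.05 in either tissue. At that level 241 of all 8534 tested probe sets were lower and 265 higher in neocortex, and 490 and 492 in hippocampus. After adjustment 0% of all probe sets passed in either tissue. Dusp1 differed by -0.23 in neocortex (interval -0.74 to 0.28) and by -0.26 in hippocampus (interval -0.66 to 0.14). Those intervals hold both 0 and differences as large as the S1P2-KO difference from wild-type in neocortex (-0.64). Siah2 differed by -0.11 in neocortex (interval -0.41 to 0.19) and the dimmer Gadd45b set by -0.18 (interval -0.62 to 0.26). These intervals also hold 0, but do not reach the S1P2-KO differences from wild-type of -0.54 and -0.89. No difference between the genotype with seizures and the one without was shown for these genes, which does not show that the genotypes are alike.

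Values that moved beside these differences were looked at. In S1P2-KO neocortex the median differences of marker lists were 0.32 for choroid plexus (5 genes, 4 higher), 0.52 for blood (2 genes, both higher), 0.12 for thalamus (4 genes, all higher), 0.08 for endothelium (7 genes), 0.05 for microglia (6), 0.02 for oligodendrocytes (4), -0.00 for astrocytes (5) and -0.05 for neurons (6, of which 5 were lower). In S1P2-KO hippocampus choroid plexus was at 0.39 with all 5 genes higher, and its summed signal ran from 4234 to 47100 in wild-type and from 3695 to 39730 in S1P2-KO. In S1P3-KO neocortex the medians were 0.34 for blood (both genes higher), 0.19 for choroid plexus (3 of 5 higher), 0.12 for endothelium (5 of 7 higher) and between -0.09 and 0.07 for the other 7 lists. In S1P3-KO hippocampus the 4 neocortex markers were all lower, with a median of -0.50, and their summed signal ran from 768 to 2307 against 1226 to 3372 in wild-type (1033 on replicate 5). Thalamus markers were at -0.29 there (3 of 4 lower), microglia at -0.15 (5 of 6), neurons at -0.13 (4 of 6) and the other 6 lists between -0.08 and 0.09. The summed microglial signal was 6174 on replicate 5 and 11730 to 12300 on the other 4 arrays. In the same group Ier2, both Gadd45b sets and the brighter Homer1 set were lower on average, while the dimmer Homer1 set was higher (0.22). The part of other tissues and cells in the effector results was not tested. The 3' to 5' ratio, lower in both knockouts of neocortex, was entered as a covariate. With it the S1P2-KO differences in neocortex were -0.66 for Dusp1, -0.51 for Siah2 and -0.83 for the dimmer Gadd45b set, and the median of the 7 genes was -0.28.

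Transcription-factor early genes were set beside the effector genes. Of 27 listed, 20 were tested. In S1P2-KO neocortex 17 of the 20 were lower, with a median of -0.29, and 11 were lower at an unadjusted p under 0.05. Fos, which encodes a subunit of AP-1, ran from 1052 to 5739 with a median of 2833 in wild-type and from 378 to 2539 with a median of 1093 in S1P2-KO, a difference of -1.32 (SE 0.27). That is larger than for any effector gene. Egr1 (-0.57), Junb (-0.64) and Nr4a1 (-0.63), a zinc finger factor, an AP-1 subunit and an orphan nuclear receptor, differed by about as much as Dusp1 and Siah2. None passed after adjustment (limma adjusted p = 0.0764 for Fos, 0.194 for Egr1, 0.341 for Junb and 0.399 for Nr4a1). Fos passed when wild-type replicate 6, wild-type replicate 7 or S1P2-KO replicate 2 was left out (adjusted p = 0.0218, 0.0234 and 0.0438), the same arrays as for the dimmer Gadd45b set, and with array weights (0.0273).

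In the other comparisons most genes of both lists were lower as well. The medians of the 20 factor genes were -0.11 in S1P2-KO hippocampus, -0.20 in S1P3-KO neocortex and -0.18 in S1P3-KO hippocampus, with 14, 15 and 14 lower. Those of the 7 effector genes were -0.17, -0.35 and -0.24, with 7, 5 and 6 lower. Over all probe sets the medians were -0.00, -0.00 and -0.01. Fos differed by -1.23, -1.0 and -0.93 in these 3 comparisons, Egr1 by -0.47, -0.53 and -0.61, and Nr4a1 by -1.01, -0.39 and -0.53. Over the alternative settings Junb ran from -0.40 to -0.26, from -1.15 to -0.34 and from -0.89 to 0.0016. After adjustment 0 of the 20 factor genes passed in any of the 3.

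A further list held 46 names of effector genes that activity is known to induce, some of them old and new symbols of the same gene. Of these genes 26 were tested. In S1P2-KO neocortex 22 of the 26 were lower, with a median of -0.15, 8 lower and 1 higher at an unadjusted p under 0.05, and 0 called. The members with the smallest p were Gadd45g, a relative of Gadd45b (-0.50, limma adjusted p = 0.162), and Tiparp, an ADP-ribosyltransferase (-0.85, adjusted p = 0.279). In S1P2-KO hippocampus 18 of 26 were lower (median -0.07), in S1P3-KO neocortex 16 (median -0.02) and in S1P3-KO hippocampus 15 (median -0.06). The members with the smallest p there pointed in both directions. Nptx2, a secreted protein that clusters AMPA receptors, was at 0.40 in S1P2-KO hippocampus and 0.64 in S1P3-KO neocortex, and Rgs4, an inhibitor of G protein signalling, was at -0.94 in S1P3-KO hippocampus.

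Within a group the arrays themselves varied, and the effector genes did not share this variation equally. Wild-type neocortex replicates 3 and 4 were the highest in Fos (5739 and 5404) and in Dusp1 (5596 and 5325), and replicates 6 and 7 were the lowest in both (1052 and 1125 for Fos). Over the 10 wild-type neocortex arrays the log2 signals of Dusp1 and Fos correlated with r = 0.98 and rho = 0.96 (permutation p = 3e-05 and 5e-05). Adjusted over the 36 relations computed (9 probe sets in the 4 groups of 10 arrays) the first was 0.00108. Without the 2 arrays farthest from the Fos median, r was 0.99. With Egr1 in place of Fos it was 0.84.

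Other effector genes followed Fos to different degrees in wild-type neocortex. Ier2 had r = 0.95 and rho = 0.92 (permutation p = 0.00042 and 0.00049, the first adjusted to 0.00756), with r = 0.78 without the 2 arrays. The dimmer Gadd45b set had r = 0.91 and rho = 0.82 (permutation p = 0.00082 and 0.00584, the first adjusted to 0.00842), with 0.67 without them. Btg2 had r = 0.85 and rho = 0.94 (permutation p = 0.00273 and 0.00021, the first adjusted to 0.0140), with 0.94 without them. The brighter Gadd45b set had r = 0.79 and rho = 0.48 (permutation p = 0.00759 and 0.168, the first adjusted to 0.0342), with 0.27 without the 2 arrays, so that relation rests on them. Siah2 (r = 0.55), Ptgs2 (0.45) and both Homer1 sets (0.24 and 0.32) did not pass. Without the 2 arrays their r was -0.23, -0.14, -0.38 and 0.18, in that order.

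In the other groups fewer relations passed. In S1P2-KO neocortex they were the dimmer Gadd45b set (r = 0.84), Ier2 (0.79, but 0.10 without the 2 arrays) and Dusp1 (0.68), with permutation p of 0.00842, 0.0346 and 0.0412 after adjustment. In wild-type hippocampus they were the dimmer Gadd45b set (r = 0.88, adjusted permutation p = 0.00842) and Dusp1 (r = 0.84, adjusted permutation p = 0.00996). The second was 0.33 when the 3' to 5' ratio was held constant. In S1P2-KO hippocampus, where Fos itself ran only from 285 to 557, r lay between -0.34 and 0.62 and 0 of 9 passed. Siah2 had r = 0.20 in wild-type and 0.48 in S1P2-KO hippocampus. Without the 2 arrays farthest from the Fos median of the group these became 0.83 and 0.86, and neither passed (adjusted permutation p = 0.0884 and 0.0711). In all 10 of 36 relations passed with Pearson's r, 6 with Spearman's rho and 3 without the 2 arrays farthest from the Fos median. As a background, the share of the other 8533 tested probe sets with an r of either sign at least as far from 0 as the weakest effector relation that passed was 2.09% in wild-type neocortex, 2.99% in S1P2-KO neocortex and 0.586% in wild-type hippocampus, against 5, 3 and 2 of 9 effector probe sets. Whether the relations differ between genotypes was not tested, and groups split by sex hold 5 arrays, too few for a correlation.

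**Figure D3:**
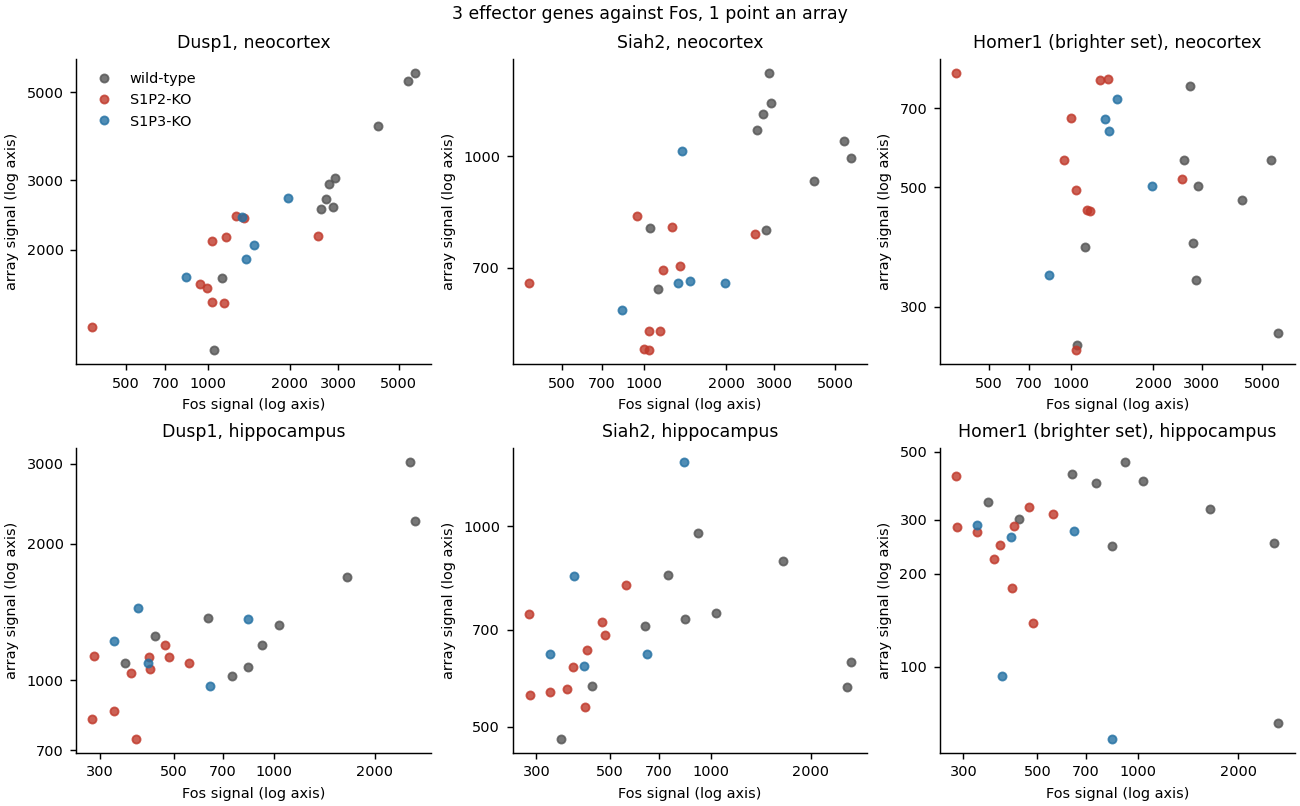
Signal of Dusp1, Siah2 and the brighter Homer1 set against that of Fos on the same array, on log axes, for neocortex (top) and hippocampus (bottom). Each point is an array. In wild-type neocortex Dusp1 lies along a line with Fos (r = 0.98), while Siah2 (0.55) and Homer1 (0.24) did not pass the adjusted threshold. Without the 2 arrays farthest from the Fos median of the group, Siah2 had r = -0.23 in wild-type neocortex. In hippocampus it then had 0.83 in wild-type and 0.86 in S1P2-KO (adjusted permutation p = 0.0884 and 0.0711).

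**Figure D4:**
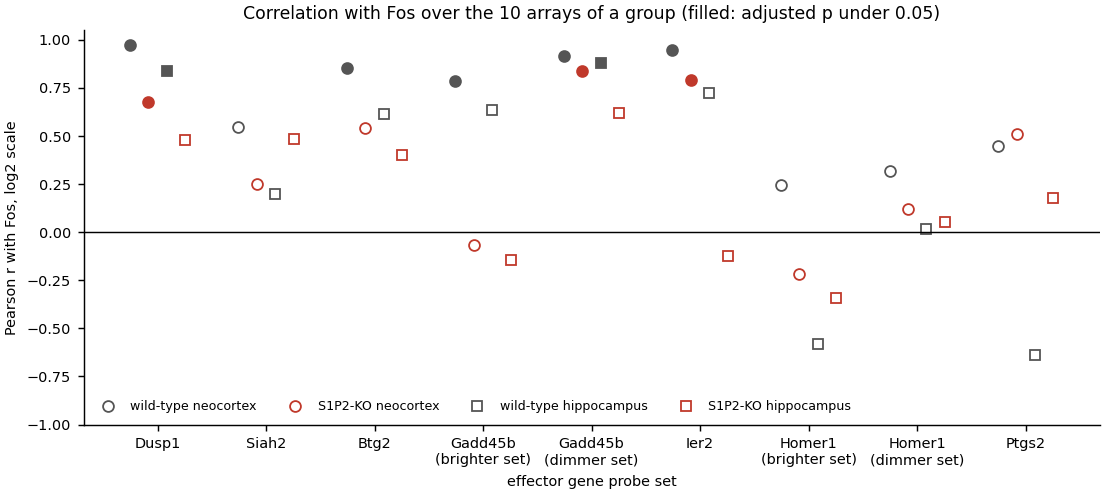
Pearson correlation of each effector probe set with Fos over the 10 arrays of each group (circles neocortex, squares hippocampus). Filled symbols passed an adjusted permutation p of 0.05, which 10 of 36 did. None of them belongs to Homer1, Ptgs2, Siah2 or S1P2-KO hippocampus.

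The spread of signals differed in size as well. In wild-type neocortex the SD of log2 signals was 0.70 for Dusp1, 0.61 for Ier2, 0.51 for Btg2 and 0.30 for Siah2, against 0.81 for Fos and a median of 0.26 over all tested probe sets. In S1P2-KO neocortex it was 0.33 for Dusp1, 0.40 for Ier2, 0.33 for Btg2 and 0.23 for Siah2, against 0.65 for Fos and the same median of 0.26. The brighter and dimmer Gadd45b sets had 0.36 and 0.50 in wild-type and 0.30 and 0.34 in S1P2-KO neocortex. Ptgs2 had 0.84 in wild-type, above Fos, and 0.71 in S1P2-KO. The brighter and dimmer Homer1 sets did not narrow, with 0.47 and 0.41 in wild-type and 0.49 and 0.63 in S1P2-KO. In hippocampus Dusp1 had 0.50 in wild-type and 0.23 in S1P2-KO, with medians over all probe sets of 0.28 and 0.27. The difference in spread between genotypes was not tested.

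Genes most like each effector gene were listed by r over the 50 arrays after group means were removed, among 6343 genes. Group differences play no part in this measure, but the points share array quality and scaling. Dusp1 was nearest to Klf4 (r = 0.80), Fos (0.79) and Nr4a1 (0.77). Btg2 was nearest to Klf4 (0.69), Fos (0.66) and Egr2 (0.61). The dimmer Gadd45b set was nearest to Fos (0.82), Nr4a1 (0.76) and Egr1 (0.73), and Ier2 to Nr4a1 (0.75), Junb (0.72) and Dnajb1 (0.67). All but Dnajb1, a heat shock co-chaperone, are transcription-factor early genes.

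Other effector genes had few or no early genes near them. Siah2 was nearest to Plat (0.59), Eef1a1 (0.58) and Dync1h1 (0.56), the brighter Homer1 set to Atp8a1 (0.69), U2af1 (0.69) and Cacng2 (0.68), and Ptgs2 to Pgrmc2 (0.58), Prxl2a (0.55) and Saa2 (0.51). Among the 6343 genes ranked, 20 were transcription-factor early genes. Of the 20 nearest genes, transcription-factor early genes made up 7 for the dimmer Gadd45b set, 6 for Dusp1, 6 for Ier2, 4 for Btg2, 2 for the brighter Gadd45b set, 1 for Siah2, and 0 for Ptgs2 and either Homer1 set. Among the effector genes themselves Dusp1 correlated with Btg2 (0.75) and Ier2 (0.75), and the 2 Homer1 sets with each other at 0.35.

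Tissue gave the differences that passed the threshold. In wild-type mice 5 of 9 effector probe sets were lower in hippocampus than in neocortex after adjustment, against 6.74% of all tested probe sets, and 0 were higher. Dusp1 differed by -0.98 (SE 0.19, limma adjusted p = 1.28e-04), Ier2 by -0.75 (SE 0.18, adjusted p = 0.00240), the dimmer Gadd45b set by -0.68 (SE 0.18, adjusted p = 0.00548), Siah2 by -0.46 (SE 0.13, adjusted p = 0.00774) and the dimmer Homer1 set by -1.72 (SE 0.33, adjusted p = 7.86e-05). On the dimmer Homer1 set 8 of 10 hippocampus arrays lay below every neocortex array, a share not counted over all probe sets. Its mean was 85.5 in wild-type hippocampus, below the filter level of 132.6, and 297 in neocortex. The filter used the mean over all arrays, which the neocortex arrays raised. Its hippocampus signals went down to 13, where the method is noisiest, so this call is less sure than the others. The brighter Homer1 set (-0.49), the brighter Gadd45b set (-0.25), Ptgs2 (-0.25) and Btg2 (-0.10) did not pass. When the probe sets of a gene were averaged, Homer1 and Gadd45b passed (-1.11 and -0.46).

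In the knockouts Dusp1, Ier2 and both Homer1 sets passed, 4 of 9 in S1P2-KO and in S1P3-KO, against 7.09% and 6% of all probe sets. Dusp1 differed by -0.84 in S1P2-KO and -0.82 in S1P3-KO (limma adjusted p = 9.83e-04 and 0.0391). Every hippocampus array lay below every neocortex array for Dusp1 in both genotypes, and for both Homer1 sets in S1P3-KO. How many of all tested probe sets did so was not counted. The brighter Homer1 set differed by -1.0 and -1.58 (adjusted p = 0.00212 and 9.33e-04) and the dimmer one by -1.07 and -1.83 (adjusted p = 0.0181 and 0.00498). The dimmer set was again low in hippocampus, with means of 152 and 99.7 against 331 and 365 in neocortex. Ier2 differed by -0.58 and -0.80 (adjusted p = 0.0234 and 0.0353). Siah2, lower in wild-type hippocampus, differed by -0.04 in S1P2-KO and 0.09 in S1P3-KO.

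Some of the knockout calls were close to the threshold. In S1P3-KO, without hippocampus replicate 5, the tissue difference of Dusp1 was -0.86 (limma adjusted p = 0.0517) and that of Ier2 was -0.61 (adjusted p = 0.182), so both calls were lost, while Homer1 kept both. Dusp1 also lost its call there without any single one of neocortex replicates 1, 3, 4 and 5 or hippocampus replicates 2, 3 and 4 (adjusted p up to 0.102), and Ier2 without neocortex replicates 3, 4 or 5 or hippocampus replicate 2 (up to 0.0901). In S1P2-KO, Ier2 lost its call without neocortex replicate 2 (adjusted p = 0.0586) or hippocampus replicate 4 (0.0542), and the dimmer Homer1 set without hippocampus replicate 7 (0.0636).

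Most transcription-factor genes were lower in hippocampus as well, 15 of the 20 in wild-type mice, and 5 were higher. In wild-type mice Fos differed by -1.49, Egr1 by -1.5, Nr4a1 by -0.86 and Junb by -0.76, hippocampus minus neocortex, all past the threshold. After adjustment 575 of all 8534 tested probe sets were lower and 668 higher in wild-type. The counts were 605 and 650 in S1P2-KO, and 512 and 511 in S1P3-KO. Of the 20 factor genes 10 were lower and 3 higher in wild-type, 9 and 3 in S1P2-KO, and 5 and 3 in S1P3-KO. The 3 called higher, named here after their values were seen, were Cebpd (1.34), Jun (1.02) and Cebpb (0.35) in wild-type, factors of the C/EBP and AP-1 families. Of the 7 effector genes by brightest set, 3 were lower and 0 higher in each genotype. Of the 26 further effector genes 11 were lower and 2 higher in wild-type, 11 and 2 in S1P2-KO, and 8 and 1 in S1P3-KO. Cdkn1a (-1.36), a cell cycle inhibitor, and Rgs4 (-1.35) had the lowest wild-type values among those named, and Errfi1 (0.57), an inhibitor of the EGF receptor, was higher.

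**Figure D5:**
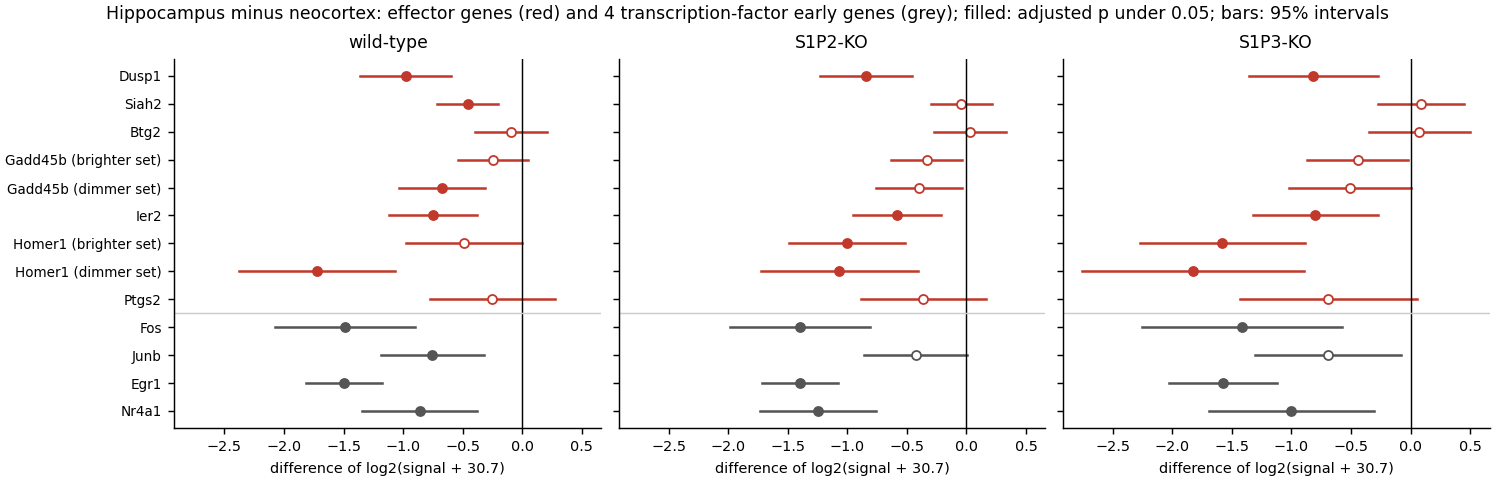
Log2 difference of hippocampus from neocortex in each genotype, for the effector probe sets (red) and 4 transcription-factor early genes (grey), with 95% intervals. Filled symbols passed the adjusted threshold. Dusp1 and Ier2 are filled in all 3 genotypes (-0.98, -0.84 and -0.82 for Dusp1), and Siah2 in wild-type only, at -0.46.

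The S1P2-KO effect was also compared between the sexes. In neocortex male wild-type mice had the higher Dusp1, with 3843 on average against 2481 in females, while S1P2-KO males had 1723 and females 2023 (n = 5 each). Siah2 averaged 1135 and 850 in wild-type males and females, and 625 and 712 in S1P2-KO. The S1P2-KO effect, female minus male, differed by 0.90 (SE 0.37) for Dusp1 and by 0.59 (SE 0.21) for Siah2, with unadjusted limma p of 0.0227 and 0.00853. Neither passed over all probe sets (adjusted p = 0.596 and 0.479), of which 0% did. In hippocampus Btg2 had the smallest p (0.50, SE 0.24, adjusted p = 0.898), and 0% of all probe sets passed. The tissue difference of the S1P3-KO effect was lowest for the brighter Homer1 set, at -1.09 (SE 0.42, unadjusted limma p = 0.0128, adjusted p = 0.875), and it was -0.78 without S1P3-KO hippocampus replicate 5.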

How the data were processed

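RNA of neocortex and hippocampus from 3 genotypes was measured on 50 arrays, from 12 µg of total RNA each per the labels' protocols. The authors deposited a linear intensity for every probe set of every array. These are MAS5 signals per the submitters' processing notes, which give no version. The method takes mismatch probes off and scales each array, which makes low signals noisy. The median signal ran from 299.6 to 413.8. Probe sets were named by the platform's table (10855 with 1 symbol, 396 with several, 1237 with none), and a gene stands in list counts by its brightest probe set (highest mean over all arrays).

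Computed were log2(signal + 30.7), the 10th percentile of all signals, and linear models with limma 3.58.1 in R 4.3.3 (lmFit, eBayes with a mean trend) on 8534 probe sets with a mean above the 30th percentile (132.6), after removal of 66 control sets. Genotypes were compared within a tissue with sex as a covariate; tissues in 1 model of all arrays, at an even mix of the sexes. P-values were adjusted by Benjamini-Hochberg. Named are all effector genes, Fos, Junb, Egr1 and Nr4a1, the 2 further effector genes with the smallest p in a comparison, and the 3 genes most like each member. The members and lists were chosen with earlier results of these data known. The models were tested on simulated data. Alternatives varied the pseudocount, filter, scaling, probe set rule, weights, covariates, arrays and replicate block.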

Additional observations from a re-analysis of the deposited data

Results flagged for a closer look

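In each of the 9 effector probe sets and 6 groups the highest and lowest array were set against the rest of the group, and 3 of the 54 sets of arrays held an array that stood far from the others, where chance gives about 1 in 20. Btg2 was 2003.4 on S1P3-KO hippocampus replicate 5, with the next array at 1578.6. That array has the 3' to 5' ratio of 4.46. Without it the Btg2 mean of the group was 1545 ± 39.4 (n = 4). Ptgs2 was 752.7 on S1P2-KO neocortex replicate 2, with the next array at 322.6. Siah2 was 1017.4 on S1P3-KO neocortex replicate 4, with the next array at 670.6.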

How the results depend on the processing

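For 81 single-gene results, 10 to 13 settings each other than leaving out an array gave 965 values. Of these values 939 kept the direction and the side of the threshold, 8 crossed it upwards, 8 crossed it downwards and 10 changed sign. The number of effector probe sets called in S1P2-KO neocortex, 0, was 2 with array weights (the dimmer Gadd45b set and Siah2, limma adjusted p = 0.0273 each) and 0 to 2 with single arrays left out. For hippocampus minus neocortex in S1P2-KO the count of 4 was 2 with a filter at the 50th percentile. In S1P3-KO the count of 4 was 2 with no filter, with that filter, and with the control-signal ratio in the model, and 2 to 4 with single arrays left out. The 10 relations with Fos were 6 by rank, 3 without the 2 arrays farthest from the Fos median and 5 with Egr1 in place of Fos. Differences that changed sign were those of Ptgs2 in S1P2-KO neocortex (0.019 with a pseudocount of 1, 0.035 with quantile normalization, 0.28 with the ratio in the model, -0.18 to 0.15 with single arrays left out) and in S1P3-KO hippocampus (0.064 with quantile normalization, -0.21 to 0.095 with single arrays left out), the brighter Homer1 set in S1P2-KO hippocampus (0.29 with the probe sets averaged), Siah2 in S1P3-KO hippocampus (-0.069 with array weights, -0.066 without the 3 high-ratio arrays, -0.037 to 0.21 with single arrays left out) and Btg2 between wild-type tissues (-0.18 to 0.00028 with single arrays left out). The cause was not tested.

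The labels do not say that replicate numbers pair the samples, and not every same-numbered pair correlated above 0.1, so no pairing was assumed. Between tissues the median correlation of same-numbered arrays was 0.10, 0.12 and -0.02 in wild-type, S1P2-KO and S1P3-KO, with 5 of 10, 7 of 10 and 0 of 5 pairs above 0.1. For other numbers of the same sex it was -0.03, -0.06 and 0.0093. Of the arrays 2, 4 and 1 correlated best with their own number. In a comparison of genotypes the block joins equal numbers of different genotypes, which are different animals. S1P3-KO replicates 3 to 5 are female, and those of wild-type are male. In neocortex such pairs had medians of 0.024 (S1P2-KO and wild-type), 0.0090 (S1P3-KO and wild-type) and -0.0375 (both knockouts). Of the arrays 0 of 10, 1 of 5 and 0 of 5 correlated best with their own number. With the replicate block the S1P2-KO neocortex count was 1 (the dimmer Gadd45b set, limma adjusted p = 0.025), Egr1 passed in both knockouts of neocortex, and 3 signs changed: the brighter Homer1 set in S1P3-KO neocortex (-0.21), and Dusp1 (0.040) and Junb (0.0016) in S1P3-KO hippocampus. Over all probe sets the S1P2-KO neocortex count of 0 was 8 with array weights, 8 with the block and 1 with the ratio; that of S1P3-KO neocortex was 23 with the ratio and 87 with the block; and the 3 of S1P3-KO hippocampus were 1 without the high-ratio arrays and 0 with the block or with 2 genotypes in the fit. S1P2-KO against S1P3-KO gave 47 with the block in neocortex and 2 with array weights in hippocampus, against 0, and tissue in S1P3-KO gave 632 with array weights and 659 with the ratio, against 1023. No count of effector probe sets but those named moved by over 1.5 times.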

Other observations

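Arrays of neocortex and hippocampus carry the same replicate numbers, and whether a number marks an animal is not stated. Over the 10 same-numbered pairs of wild-type arrays the log2 signal in neocortex and hippocampus correlated for Fos (r = 0.94, rho = 0.79), the dimmer Gadd45b set (r = 0.91, rho = 0.88) and Dusp1 (r = 0.79, rho = 0.79), with permutation p of 0.00190, 0.00190 and 0.0371 after adjustment over 20 relations. Without the 2 arrays farthest from the median r was 0.94, 0.77 and 0.81. In S1P2-KO, Dusp1 correlated between tissues (r = 0.77, rho = 0.80, adjusted permutation p = 0.0371) and Fos did not pass (r = 0.17). No relation passed for Siah2 or Ptgs2, and for Homer1 the brighter set passed in S1P2-KO by rank only (rho = 0.85, adjusted permutation p = 0.0276).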
